A study of Mus musculus with 384 samples.

Results

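The 10 genes described here encode 5 receptors of the tumour necrosis factor (TNF) receptor superfamily, Tnfrsf4, Tnfrsf18, Tnfrsf9, Tnfrsf1b and Tnfrsf1a, and 5 TNF receptor-associated factors, Traf1, Traf2, Traf3, Traf5 and Traf6. They were taken by name from a listed set, and all 10 were found among the 50556 gene symbols of the count matrix. The cells were regulatory T (Treg) cells sorted from mouse ear skin on day 3, after 3 days of topical 5% imiquimod or of vehicle. Imiquimod is a Toll-like receptor agonist used on mouse skin to model psoriasis. The labels name no strain, genotype, sex or age, and the design text gives 2 mice for each treatment, but which plate came from which mouse is not said. Each treatment had 2 plates of 87 single-cell wells, and the plate is the replicate. The plates are nested in the treatments, so a difference between whole plates and an effect of treatment cannot be told apart except through the spread between plates. A further 16 wells held 10 cells, with no treatment in the labels, and 20 wells held no cell.

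Receptors of this superfamily are surface proteins that bind trimeric ligands of the TNF family. Most of those on T cells have no enzymatic activity of their own and signal through TRAF proteins, which bind the cytoplasmic tail and lead to NF-κB and kinase pathways. Treg cells are known for carrying OX40 (Tnfrsf4), GITR (Tnfrsf18), 4-1BB (Tnfrsf9) and TNFR2 (Tnfrsf1b), and these costimulatory receptors bear on Treg proliferation and survival.

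Kept were the wells with 500 or more genes and 10000 or more counts. These were 38 and 44 cells on the imiquimod plates and 62 and 58 cells on the vehicle plates. Kept cells held 47481 to 5946386 counts, and their median number of genes was 975 and 1093 on the imiquimod plates and 1040.0 and 1503 on the vehicle plates. A T cell receptor or CD3 transcript was counted in 180 of the kept cells (89.1%) and Foxp3, the lineage transcription factor of Treg cells, in 75 (37.1%). The constant region symbols Trac, Trbc1 and Trbc2 had no count in any kept cell, while Tcra was counted in 69.8% of cells and Tcrb in 69.3%. Transcripts of other cells also differed between plates, and their part in the results below was not tested. All 4 haemoglobin genes of an erythroid list had counts, and at least 1 of them was counted in 55.3% and 45.5% of imiquimod cells and in 3.23% and 22.4% of vehicle cells. Of 5 mast cell genes, Kit and Cpa3 had counts and Mcpt4, Tpsb2 and Fcer1a were at 0. At least 1 was counted in 5.26% and 4.55% of imiquimod cells and in 29.0% and 25.9% of vehicle cells. In the 20 empty wells Tnfrsf18 had 3 counts in 2 wells and Traf1 had 1 count in 1 well. Those wells were all of title set CTRL3, and the running numbers in their titles fall among those of imiquimod plate 1. The other 8 genes had no count in any empty well, which allows a share of wells of up to 15.0% if every empty well could have shown a count. Many of the empty wells held few or no reads of any gene, so that limit is too low.

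The expression of 6 of the 10 genes was frequent. Traf1 was detected, with at least 1 count, in 94 kept cells (46.5%), Tnfrsf1b in 81 (40.1%), Tnfrsf9 in 74 (36.6%), Tnfrsf18 in 61 (30.2%), Tnfrsf4 in 58 (28.7%) and Traf3 in 56 (27.7%). Traf2 was detected in 24 cells, Traf6 in 14, Tnfrsf1a in 10 and Traf5 in 8. Levels between genes were compared per kilobase of exon, as CPM, in which each plate sum is divided by its own total, without further scaling. The mean of the 4 plates was 947 CPM per kilobase for Tnfrsf4 (lowest plate 626, highest 1874) and 655 for Tnfrsf18 (471 to 934). It was 403 for Tnfrsf9 (288.5 to 587), 297.8 for Tnfrsf1b (208.9 to 385.98), 138.02 for Traf1 (51.6 to 230.9) and 50.4 for Traf3 (41.5 to 58.1). Traf2 followed at 32.6 CPM per kilobase (3.73 to 62.6), then Traf5 at 20.3 (0 to 66.4), Tnfrsf1a at 9.09 (0 to 22.7) and Traf6 at 1.82 (0.00377 to 3.56). The 4 costimulatory receptors thus stood at the top of the order by level per kilobase, while Traf1 led the order by number of cells. The range from lowest to highest plate overlapped for each pair of neighbours in this order. Compared plate by plate, Tnfrsf4 was above Tnfrsf18, Tnfrsf18 above Tnfrsf9 and Traf1 above Traf3 on all 4 plates. The order of the other neighbours differed between plates. The order depends on the division by exon length. In CPM pooled over all kept cells without it, Traf1 stood first at 1263. Tnfrsf4 then had 1190 CPM, Tnfrsf1b 1126, Tnfrsf9 1055 and Tnfrsf18 962.

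**Figure D1:**
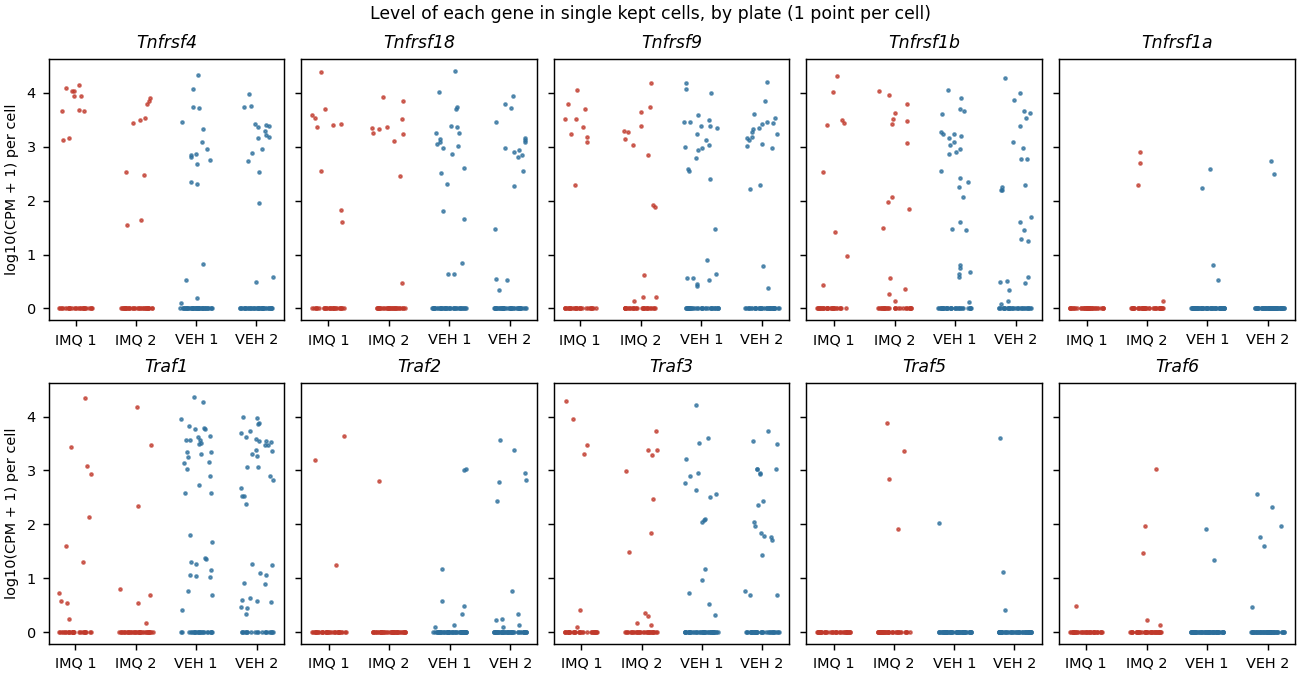
Level of each of the 10 genes in single kept cells, as log10(CPM + 1), by plate, with imiquimod (IMQ) plates left of vehicle (VEH) plates and 1 point per cell. Points at 0 are cells without a count. Traf1 has 3 and 2 cells at 1000 CPM or more on the imiquimod plates against 21 and 19 on the vehicle plates.

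Traf1 showed the widest separation between treatments among the 10 genes. It encodes an adaptor that lacks the RING domain found in TRAF2 and TRAF6, pairs with TRAF2, and is itself induced by NF-κB. It was detected in 28.9% and 15.9% of cells on the imiquimod plates and in 61.3% and 65.5% on the vehicle plates. The means were 22.4% ± 9.22 for imiquimod and 63.4% ± 2.99 for vehicle (SD, n = 2 plates each), a difference of -40.98 percentage points. The exact two-sided permutation p was 0.3333, the smallest that 2 plates against 2 allow, and it is the same for every comparison of shares below whose plates do not overlap. Detection was lower for many genes. Of 1559 genes seen in at least 20% of kept cells, 59.3% were lower on both imiquimod plates than on both vehicle plates and 3.78% were higher on both, with a median difference of -10.03 percentage points. Against that background, 4 of the 1559 genes, Traf1 included, had a difference as low as that of Traf1. That pool was not matched for frequency, and genes near 20% are in too few cells to reach so wide a difference.

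The lower share of Traf1 was also present at equal read depth. Median counts per kept cell were 1.18e+06 and 2.22e+06 on the imiquimod plates and 8.13e+05 and 1.21e+06 on the vehicle plates. The counts are reads, so thinning evens out reads and not the molecules captured per cell, whose part was not tested. After every cell was thinned at random to 100000 counts, which left out 3 and 0 imiquimod cells and 1 and 0 vehicle cells, Traf1 was detected in 20.0% and 13.6% of imiquimod cells and in 57.4% and 60.3% of vehicle cells. Among the 605 genes seen in at least 20% of thinned cells, none other than Traf1 had a difference as low as its -42.04 percentage points, and the median was -9.30. This pool too was not matched for frequency, and its rarer genes could not reach such a difference. In cells with at least 1000 genes the Traf1 shares were 36.8% and 21.4% for imiquimod and 79.4% and 80.0% for vehicle. In cells with a T cell receptor or CD3 count they were 27.3% and 18.4% for imiquimod and 62.5% and 67.9% for vehicle. Among cells with a Foxp3 count, a selection made after the values were seen, Traf1 was detected in 21.4% and 14.3% of 14 and 14 imiquimod cells and in 70.8% and 78.3% of 24 and 23 vehicle cells. In such cells 61.5% of 3069 genes were lower on both imiquimod plates and 1.86% were higher. In each of these subsets both imiquimod plates were below both vehicle plates.

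The level of Traf1 in the cells that had it differed in the same direction. The median over cells with a count was 37.8 and 5.23 CPM on the imiquimod plates and 1421 and 965 CPM on the vehicle plates. The highest single cells were alike in range, at 22275 and 14815 CPM on the imiquimod plates and 23005 and 9855 CPM on the vehicle plates. Few imiquimod cells carried the gene at a high level. The share at 1000 CPM or more, a cut chosen after the values were seen, was 7.89% and 4.55% of imiquimod cells and 33.9% and 32.8% of vehicle cells. Of 751 genes at that level in at least 5% of kept cells, 25.2% were lower on both imiquimod plates and 17% were higher on both. Traf1 was the single member below on both plates by this measure, and the other 9 overlapped. On imiquimod plate 2 a single cell held 88.6% of all Traf1 counts. The highest cell held 41.2% on imiquimod plate 1, and 19.8% and 10.6% on the vehicle plates.

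After summing over cells and TMM scaling, which sets the bulk of genes equal between libraries, Traf1 had 701 and 484 CPM on the imiquimod plates and 1865 and 1479 CPM on the vehicle plates. The groups did not overlap, and the log2 fold change was -1.50 ± 0.66 (SE), with p = 0.0413 and an adjusted p of 0.422 by edgeR's quasi-likelihood test. The same fit called 0% of 14462 genes at an adjusted p under 0.05, while 9.82% were lower and 1.72% higher in imiquimod at an unadjusted p under 0.05. Plate sums of 31.1% of genes were lower without overlap and of 13.7% higher without overlap. In such sums fewer cells with a transcript and less of it per cell cannot be told apart. Without the highest cell of each gene on each plate the Traf1 value was -1.90, with an adjusted p of 0.383. The spread fitted between plates was wide (a common dispersion of 2.71). In plate sums simulated with the dispersion fitted as a trend over level, 0 of 92 genes changed 16-fold were recovered in 13725 genes. The changed genes were drawn at random over all levels, so this count does not give the power for Traf1.

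The proximal promoter of Traf1 is shown beside those of Tnfrsf4 and Tnfrsf9, because the plate sums of Traf1 and Tnfrsf4 were separated in opposite directions and the Tnfrsf9 window held the most motif matches. Each window runs from 250 bases before to 50 bases after a RefSeq start (GRCm38.p6, an older build than the mm39 used for the counts), 5′ to 3′ on the gene's strand, and capitals mark the matches to the κB consensus and to the AP-1 motif TGANTCA on both strands.
Traf1, chr2:34961723-34962022, minus strand: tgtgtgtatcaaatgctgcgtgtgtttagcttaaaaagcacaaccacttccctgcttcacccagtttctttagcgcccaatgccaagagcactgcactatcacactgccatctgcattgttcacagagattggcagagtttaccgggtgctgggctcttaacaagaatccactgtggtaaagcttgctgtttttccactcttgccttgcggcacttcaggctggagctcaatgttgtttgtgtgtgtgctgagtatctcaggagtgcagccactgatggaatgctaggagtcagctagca
Tnfrsf4, chr4:156013445-156013744, plus strand: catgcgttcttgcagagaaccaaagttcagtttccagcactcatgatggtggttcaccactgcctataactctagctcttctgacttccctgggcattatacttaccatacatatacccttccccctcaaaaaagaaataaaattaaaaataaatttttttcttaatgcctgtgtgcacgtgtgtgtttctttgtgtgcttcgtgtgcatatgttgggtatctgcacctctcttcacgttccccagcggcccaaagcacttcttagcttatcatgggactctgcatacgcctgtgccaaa
Tnfrsf9, second listed start, chr4:150927749-150928048, plus strand: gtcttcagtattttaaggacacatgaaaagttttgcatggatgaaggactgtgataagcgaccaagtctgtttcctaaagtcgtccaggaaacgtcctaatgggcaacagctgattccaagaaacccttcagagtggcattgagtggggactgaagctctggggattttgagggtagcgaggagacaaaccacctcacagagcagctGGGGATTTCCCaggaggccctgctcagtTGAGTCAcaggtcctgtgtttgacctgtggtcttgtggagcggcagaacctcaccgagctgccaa
The 10 genes have 11 such windows. The κB consensus matched in 2 of them, the Tnfrsf9 window above and the window of Traf3, against 4.51% of 32851 promoter windows of the same length. In Tnfrsf9 it matched at 2 overlapping positions, which begin 43 and 42 bases before the start, and TGANTCA matched 15 bases before the start. TGANTCA was found in 1 of the 11 windows and in 7.81% of all windows. The GATA letters AGATAA were in 0 of 11 windows and in 11.2% of all. The windows of Traf1 and Tnfrsf4 held none of the marked letters, and a match is given here as a description of the sequence only.

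Tnfrsf4, or OX40, a receptor that sustains T cell survival, was the receptor with the most separated plate sums. Its sums were 3684 and 944 CPM after TMM scaling on the imiquimod plates and 797 and 669 CPM on the vehicle plates. The groups did not overlap, but imiquimod plate 1 stood far above the other plates. The log2 fold change was 1.66 ± 0.69 (SE), with p = 0.0324 and an adjusted p of 0.42 by edgeR. Without imiquimod plate 1 the log2 fold change was 0.47, in a fit that called 1.02% of 20984 genes (0.61% as higher) and not Tnfrsf4. Without imiquimod plate 2 it was 2.43, with an adjusted p of 0.0115 from edgeR, in a fit that called 3.91% of 20284 genes (2.1% as higher) and took imiquimod plate 1 to vary like the vehicle plates. DESeq2 on all 4 sums gave 2.26 and an adjusted p of 0.0261, and it called 25.9% of the 14462 genes, 6.69% as higher. Scaled by the library total alone, the Tnfrsf4 sums were 2558 and 888 CPM for imiquimod and 871 and 855 CPM for vehicle.

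The share of cells with Tnfrsf4 did not follow its summed level. It was 28.9% and 22.7% on the imiquimod plates and 30.6% and 31.0% on the vehicle plates, and after thinning it was 31.4% and 22.7% for imiquimod and 26.2% and 29.3% for vehicle, where the plates overlapped. In the cells that had Tnfrsf4, the median level was 8596 and 2953 CPM on the imiquimod plates and 696 and 1578 CPM on the vehicle plates. The lowest such cell had 1352 and 33.7 CPM on the imiquimod plates and 0.241 and 2.04 CPM on the vehicle plates. All 11 cells with a count on imiquimod plate 1 thus exceeded 1000 CPM. Over all kept cells the share at 1000 CPM or more was 28.9% and 13.6% for imiquimod and 11.3% and 19.0% for vehicle, so the plates overlapped.

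Tnfrsf18, or GITR, another costimulatory receptor of Treg cells and the neighbour of Tnfrsf4 in the genome, was detected in 26.3% and 25.0% of imiquimod cells and in 35.5% and 31.0% of vehicle cells. After thinning the shares were 28.6% and 25.0% for imiquimod and 31.1% and 25.9% for vehicle, and they overlapped. Its summed level was 2050 and 763 CPM for imiquimod and 859 and 717 CPM for vehicle after TMM scaling. The log2 fold change of 0.84 ± 0.71 (SE) had an adjusted p of 0.708 by edgeR. As with Tnfrsf4, imiquimod plate 1 was the highest plate and imiquimod plate 2 lay close to vehicle. The median in cells with a count was 2632 and 2161 CPM for imiquimod and 1087 and 843 CPM for vehicle.

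Tnfrsf9, or 4-1BB, a receptor induced on activated T cells, was detected in 26.3% and 34.1% of imiquimod cells and in 45.2% and 36.2% of vehicle cells. Both imiquimod plates were also below both vehicle plates after thinning, with 28.6% and 25.0% against 39.3% and 32.8%. In cells with a T cell receptor or CD3 count the plates overlapped, at 30.3% and 34.2% for imiquimod and 46.4% and 33.96% for vehicle. The summed level overlapped, at 2302 and 835 CPM for imiquimod and 936 and 772 CPM for vehicle (log2 fold change 0.88 ± 0.68, SE, adjusted p = 0.677 by edgeR). That direction was lost when cells were thinned before summing, where the log2 fold change was -0.11 at 100000 counts and -0.065 at 410000 counts.

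Tnfrsf1b encodes TNFR2, the TNF receptor that Treg cells carry at high level. It was detected in 23.7% and 36.4% of imiquimod cells and in 46.8% and 46.6% of vehicle cells, with a difference of -16.6 percentage points. After thinning the shares were 20.0% and 27.3% for imiquimod and 39.3% and 36.2% for vehicle. Summed levels overlapped, at 1960 and 974 CPM for imiquimod and 730 and 1153 CPM for vehicle (log2 fold change 0.64 ± 0.66, SE, adjusted p = 0.782 by edgeR). On imiquimod plate 1 a single cell held 45.9% of the Tnfrsf1b counts. Of its 56 vehicle cells with a count 14 had fewer than 10 counts, and of its 25 imiquimod cells 6 did.

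Tnfrsf1a encodes TNFR1, the widely expressed TNF receptor with a death domain. It was detected in 0% and 9.09% of imiquimod cells and in 6.45% and 3.45% of vehicle cells, 10 cells in all. On imiquimod plate 1 the 0 of 38 cells allows a share of up to 7.89%, and the same holds for Traf5 there. Its summed level was 0 and 62.5 CPM for imiquimod and 18.5 and 11.9 CPM for vehicle, and the groups overlapped. The log2 fold change of 1.04 ± 3.57 (SE, adjusted p = 0.956 by edgeR) rests on imiquimod plate 2 alone, as plate 1 was at 0. The cells with Tnfrsf1b outnumbered those with Tnfrsf1a on all 4 plates.

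**Figure D2:**
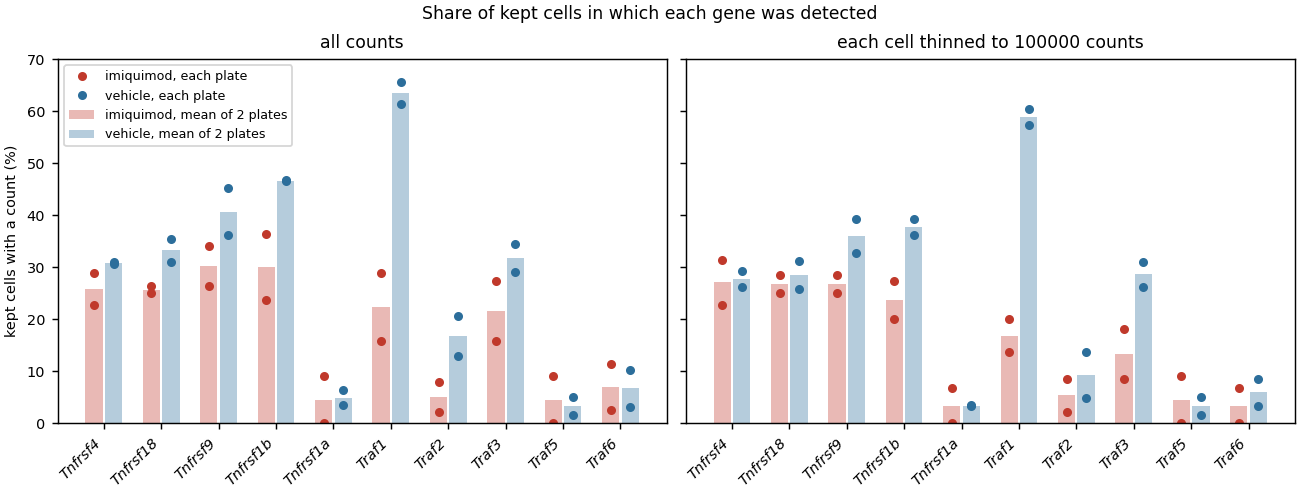
Share of kept cells with at least 1 count of each gene, with all counts (left) and with each cell thinned to 100000 counts (right). Points are plates and bars the mean of 2 plates, imiquimod left of vehicle. Traf1 has the widest gap in both panels, 28.9% and 15.9% against 61.3% and 65.5% with all counts, while the Tnfrsf4 and Tnfrsf18 plates overlap after thinning.

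Of the remaining adaptors, Traf3 was the most frequent. TRAF3 restrains the noncanonical NF-κB pathway by promoting the decay of the kinase NIK. It was detected in 15.8% and 27.3% of imiquimod cells and in 29.0% and 34.5% of vehicle cells, and after thinning in 8.57% and 18.2% of imiquimod cells and in 26.2% and 31.0% of vehicle cells. In cells with at least 1000 genes the plates overlapped, at 26.3% and 39.3% for imiquimod and 47.1% and 37.5% for vehicle. After TMM scaling the summed levels lay close together, at 439.6 and 362.1 CPM for imiquimod and 373.3 and 334.3 CPM for vehicle. Scaled by the library total alone, they were 305.3 and 340.6 CPM for imiquimod and 407.6 and 427.2 CPM for vehicle. There both imiquimod plates lay below both vehicle plates, so the direction depended on the scaling. The log2 fold change was 0.18 ± 1.06 (SE), with an adjusted p of 0.976 by edgeR, and it was -0.083 and -0.16 after thinning to 100000 and 410000 counts.

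Traf2 encodes the ubiquitin ligase adaptor that brings cIAP proteins to the receptors. It was detected in 7.89% and 2.27% of imiquimod cells and in 12.9% and 20.7% of vehicle cells, and the thinned shares overlapped at 8.57% and 2.27% for imiquimod and 4.92% and 13.8% for vehicle. Of the 20 vehicle cells with Traf2, 10 had a single count. The summed level was 460 and 20.2 CPM for imiquimod and 72.0 and 194.3 CPM for vehicle.

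Traf5, a close relative of Traf2 that binds OX40, was detected in 0 and 4 imiquimod cells and in 1 and 3 vehicle cells. On vehicle plate 2 a single cell held 99.8% of its counts, and on imiquimod plate 2 a single cell held 75.7%. Traf6, the adaptor that also serves interleukin-1 and Toll-like receptors, was detected in 2.63% and 11.4% of imiquimod cells and in 3.23% and 10.3% of vehicle cells. Its summed level was 0.0428 and 28.7 CPM for imiquimod and 2.10 and 21.9 CPM for vehicle, and the plates overlapped. For both genes the 2 plates of a treatment differed more than the treatments did.

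Over the 10 genes, 7 had a lower share of cells on both imiquimod plates than on both vehicle plates with all counts, and 3 overlapped. After thinning to 100000 counts 4 were lower (Tnfrsf9, Tnfrsf1b, Traf1 and Traf3) and 6 overlapped. Of the 6 members seen in at least 20% of kept cells, 6 were lower with all counts, beside 59.3% of the 1559 genes at that frequency. After thinning 4 of those 6 were lower, beside 56.2% of 605 genes that were lower on both imiquimod plates and 3.97% that were higher on both. These counts carry no test, and the difference of Traf1 was the widest of the 10. All 5 receptors had a positive log2 fold change in the TMM-scaled plate sums, with a median of 0.88. But limma on mean log2(CPM + 1) gave a negative value for all of them except Tnfrsf4. The TMM factors were 0.701 and 0.958 for imiquimod and 1.117 and 1.334 for vehicle, which raises every gene in imiquimod relative to vehicle. Scaled by the library total alone, the mean CPM per kilobase was higher in imiquimod for all 5. It was then nearly equal for Tnfrsf1b, at 298.2 for imiquimod and 297.5 for vehicle. Of the 5 adaptors 4 had a positive value after TMM scaling, with a median of 0.26, and limma turned Traf2, Traf3 and Traf6 to negative. Scaled by the library total alone, the means of Traf3 and Traf6 were lower in imiquimod, as was that of Traf1. The median over all 14462 genes was -0.26, and it was 0.11 with DESeq2's size factors. By edgeR 0 of the 10 members passed the adjusted threshold, 1 was higher (Tnfrsf4) and 1 lower (Traf1) at an unadjusted p under 0.05, beside 1.72% higher and 9.82% lower of all 14462 genes.

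A kept cell held 2.38 of the 10 transcripts on average. The mean was 1.61 and 1.93 on the imiquimod plates and 2.73 and 2.84 on the vehicle plates, and after thinning it was 1.46 and 1.57 for imiquimod and 2.33 and 2.47 for vehicle. No member was detected in 40 cells (19.8%), 46 had 1, 36 had 2 and 80 (39.6%) had at least 3, with 8 as the highest. Cells with no member made up 36.8% and 25.0% of the imiquimod plates and 14.5% and 10.3% of the vehicle plates. The number moved with the yield of the well, since cells with at least 3 members had a median of 2156.5 genes and cells with none 723. The empty well that passed the filter had 885 genes, and whether kept wells without a member held a cell was not tested. A receptor was detected in 69.3% of cells, an adaptor in 58.9% and both in 48.0%. Receptor and adaptor together were seen in 23.7% and 38.6% of imiquimod cells and in 58.1% and 60.3% of vehicle cells.

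**Figure D3:**
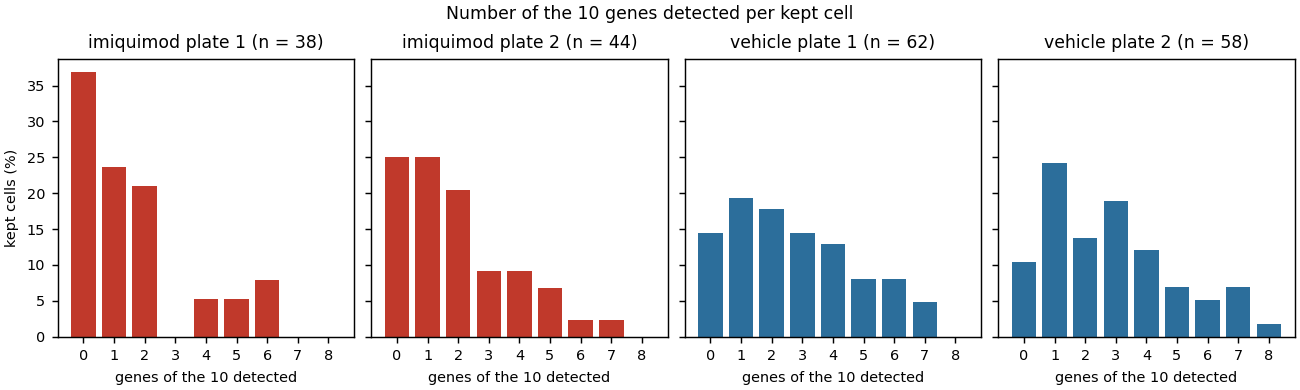
Number of the 10 genes detected per kept cell, as a percentage of the kept cells of each plate, imiquimod plates first. Cells without any of the 10 make up 36.8% and 25.0% of the imiquimod plates and 14.5% and 10.3% of the vehicle plates.

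The frequent members were detected together more often than their shares alone would give, as were most other genes of like frequency. Of the 45 pairs 36 had more cells with both genes than expected from the shares within each plate, or 31 of 45 within plates and tertiles of gene number, and the pair of Tnfrsf1a and Traf5 was never seen together. Among the 6 members detected in at least 20% of cells all 15 pairs were above expectation, with ratios of 1.30 to 1.87 and a median of 1.40. Other pairs of genes detected in 27.7% to 46.5% of cells had a median ratio of 1.25, with a 5th to 95th percentile range of 0.947 to 1.65, and 90.8% of those pairs were above expectation. With the expected number also taken within tertiles of gene number, the ratios of the 15 pairs were 1.07 to 1.40 with a median of 1.15, and those of the 221445 background pairs had a median of 1.03 and a 5th to 95th percentile range of 0.824 to 1.23, with 60.3% above expectation. These ratios carry no test.

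Tnfrsf4 and Tnfrsf9 had the highest ratio of the 15. Both were detected in 40 cells, against 21.4 expected within plates (ratio 1.87) and 28.7 expected within tertiles of gene number (1.40). These 40 cells were 69.0% of the cells with Tnfrsf4 and 54.1% of those with Tnfrsf9, and the number was above expectation on all 4 plates. Tnfrsf4 and Tnfrsf18 were found together in 32 cells against 17.7 expected (1.81), or 26.1 within tertiles (1.23). In thinned cells the ratios were 2.00 for both pairs. Traf1 was most often shared with Tnfrsf1b, in 55 cells against 40.6 expected (1.35), and with Tnfrsf9, in 52 against 36.2 (1.44). On the imiquimod plates Traf1 and Tnfrsf1b were both found in 5 and 5 cells, and on the vehicle plates in 23 and 22. Of the 24 cells with Traf2, its partner Traf1 was detected in 21 (87.5%), against 13.8 expected (1.52) and 17.5 within tertiles (1.20).

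**Figure D4:**
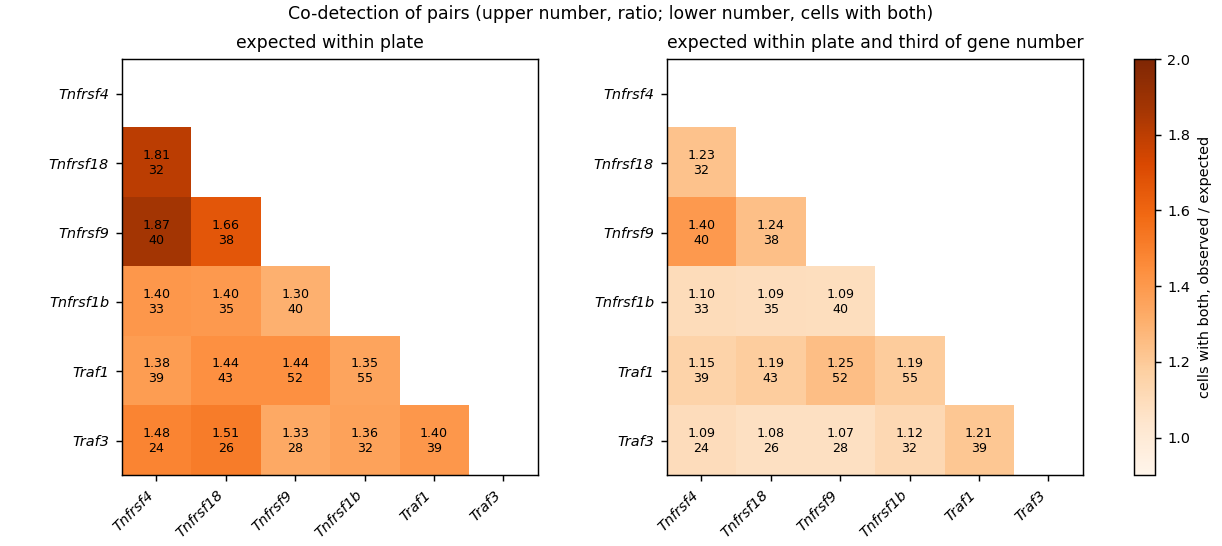
Cells in which both genes of a pair were detected over the number expected from their shares, within plates (left) and within plates and tertiles of gene number (right), for the 6 frequent members over all kept cells. Upper numbers are ratios and lower numbers cells with both, and the highest ratio in both panels is that of Tnfrsf4 and Tnfrsf9 (1.87 and 1.40).

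Cells with a Foxp3 count carried the 4 costimulatory receptors more often. Tnfrsf4 was detected in 46.7% of 75 cells with Foxp3 and in 18.1% of cells without, Tnfrsf18 in 48.0% and 19.7%, Tnfrsf9 in 52.0% and 27.6%, and Tnfrsf1b in 53.3% and 32.3%. The share of Tnfrsf18, Tnfrsf9 and Tnfrsf1b was higher with Foxp3 on all 4 plates, and that of Tnfrsf4 on 3. Tnfrsf1a was detected in 5.33% of cells with Foxp3 and in 4.72% without, and was higher on 2 of 4 plates. Traf1 was detected in 53.3% of cells with Foxp3 and in 42.5% without, and it was higher on 2 of 4 plates. The cells with Foxp3 also had more genes, with a median of 1993 against 945. Within plates and tertiles of gene number, cells with Foxp3 and a receptor exceeded the expected number by ratios of 1.18 for Tnfrsf4, 1.17 for Tnfrsf18, 1.14 for Tnfrsf9 and 1.07 for Tnfrsf1b, while the ratio was 0.942 for Traf1 and 0.671 for Tnfrsf1a. The ratios of the 4 costimulatory receptors lie within the range of 0.824 to 1.23 given above for other pairs of genes. Cells with Traf1 had a median of 1502339.5 counts and those without it 1410296 counts. For Tnfrsf4 the medians were 2569672.5 counts in cells with it and 1010665 in cells without.

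The genes whose level ran most like that of each member were found by the mean over plates of the within-plate Spearman correlation of log2(CPM + 1), over all kept cells and 1283 genes. The cells of a plate share that plate, and cells differ in depth, so these values describe the cells and carry no test. For Tnfrsf1b they were Il2ra, the interleukin-2 receptor alpha chain (0.39), Traf1 (0.37) and Il2rb, the beta chain of that receptor (0.37). For Traf1 they were Tnfrsf1b (0.37), Rhoa (0.37) and Ankrd6 (0.36). For Tnfrsf9 they were Cd4 (0.41), Slc25a3 (0.41) and Tnfrsf4 (0.38), and for Tnfrsf4 they were Prr13 (0.48), Mfsd13b (0.46) and Arhgdia (0.43). For Tnfrsf18 Hnrnpk, Gt(ROSA)26Sor and Eif4a1 stood first, between 0.45 and 0.48. For Traf3 Pde4d, Actr2 and Csnk1a1 stood first, between 0.33 and 0.36.

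The wells of 10 cells gave a second view of the same genes at greater gene yield (median 6623.5 genes). Tnfrsf4 and Tnfrsf9 were detected in all 16 wells, Tnfrsf18, Tnfrsf1b and Traf1 in 15, Traf3 in 14, Traf2 and Traf6 in 9, Tnfrsf1a in 6 and Traf5 in 3. Their levels per well, as lowest, median and highest CPM, were 131.9, 1733 and 5360 for Tnfrsf4, and 15.3, 823 and 2324 for Tnfrsf9. They were 0, 942 and 4249 CPM for Tnfrsf18, 0, 629 and 2746 for Tnfrsf1b, and 0, 1065 and 2877 for Traf1. Traf3 had a median of 156.4 CPM, Traf2 of 11.6 and Traf6 of 5.40, and the medians of Tnfrsf1a and Traf5 were 0. The single-cell shares, taken as independent over 10 cells, would give 6.37 wells for Tnfrsf1a, 8.20 for Traf6, 11.5 for Traf2 and 5.32 for Traf5, beside the 6, 9, 9 and 3 wells seen.

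**Figure D5:**
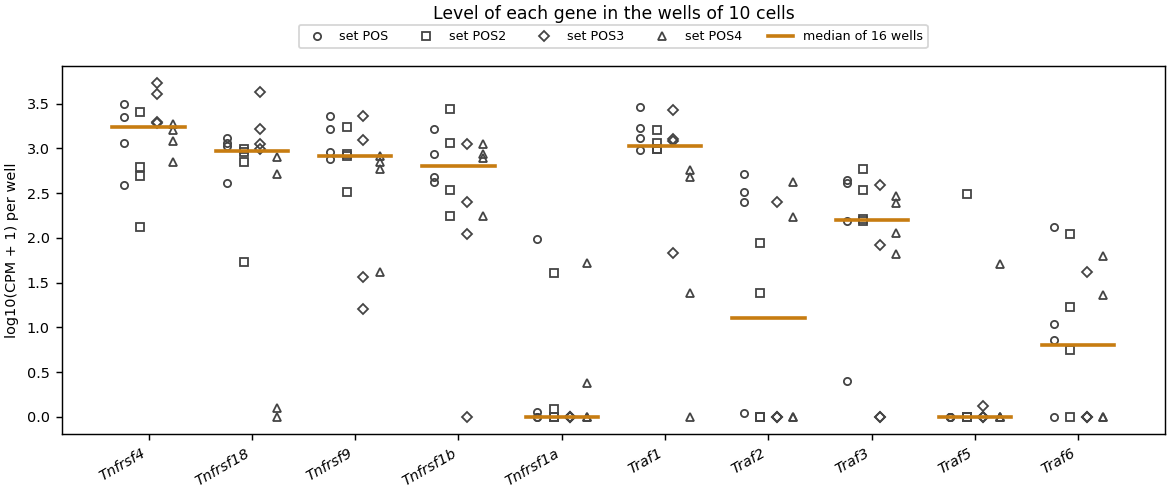
Level of each gene in the 16 wells of 10 cells, as log10(CPM + 1), with a symbol for each title set and a bar at the median of the 16 wells. Tnfrsf4 and Tnfrsf9 lie above 0 in every well, Traf1 in 15, and Tnfrsf1a and Traf5 lie at 0 in most.

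The wider pathway was followed in lists of related genes, none of whose members passed the adjusted threshold in edgeR. Of 23 other receptors of the superfamily 16 were tested, 4 with a positive and 12 with a negative log2 fold change and a median of -1.01, and 4 were lower at an unadjusted p under 0.05, beside 9.82% of all genes tested and a median of -0.26 over them. None of the 23 reached 20% of all kept cells. Cd27, a costimulatory receptor of T cells, had sums of 754 and 402 CPM for imiquimod and 255.1 and 167.7 CPM for vehicle (adjusted p = 0.654, edgeR). Sums of 13.7% of all 14462 genes were higher without overlap. The share of cells with Cd27 was 13.2% and 13.6% for imiquimod and 19.4% and 22.4% for vehicle. Fas, a death receptor, was detected in 5.26% and 9.09% of imiquimod cells and in 30.6% and 24.1% of vehicle cells. Of 18 ligands 11 were tested, 6 positive and 5 negative, with a median of 0.32. Ltb, which encodes a chain of lymphotoxin, was detected in 15.8% and 9.09% of imiquimod cells and in 27.4% and 31.0% of vehicle cells. Its sums overlapped, at 471 and 128.1 CPM for imiquimod and 350.4 and 371.8 CPM for vehicle. Eda, the ectodysplasin ligand, was detected in 5.26% and 22.7% of imiquimod cells and in 27.4% and 29.3% of vehicle cells. Beside such lower shares, 59.3% of 1559 genes seen in at least 20% of kept cells were lower on both imiquimod plates. The ligands of OX40 (Tnfsf4) and GITR (Tnfsf18) were counted in 1 and 0 kept cells.

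Of 26 TRAF relatives and receptor-proximal partners 24 were tested, 16 positive and 8 negative, with a median of 0.89, and 1 was lower at an unadjusted p under 0.05, against the same 9.82%. Birc3, the cIAP2 ligase that TRAF2 recruits, had sums of 267.5 and 616 CPM for imiquimod and 376.9 and 84.8 CPM for vehicle, which overlapped. Map3k14, which encodes NIK, had 325.1 and 129.8 CPM for imiquimod and 51.1 and 172.5 CPM for vehicle, and also overlapped. Casp8, an initiator caspase, had 161.2 and 197.3 CPM for imiquimod and 43.5 and 99.6 CPM for vehicle, without overlap (adjusted p = 0.857, edgeR), beside 13.7% of all genes with higher sums without overlap. The share of cells with Casp8 was 13.2% and 15.9% for imiquimod and 17.7% and 27.6% for vehicle. Of 19 NF-κB subunits and feedback genes 18 were tested, 9 in each direction, with a median of -0.07.

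Of the 4 NF-κB genes named by rule, Nfkb2, Bcl2l1 and Tnip1 had sums that were lower on both imiquimod plates, and Nfkbia overlapped. These genes were picked for their small p, and sums of 31.1% of all 14462 genes were lower without overlap, so nothing is read from that count. Nfkb2, the subunit processed in the noncanonical pathway, was at 136.1 and 32.7 CPM for imiquimod and 360.4 and 347.8 CPM for vehicle (log2 fold change -2.07 ± 1.49, SE, adjusted p = 0.636 by edgeR). It was detected in 2.63% and 15.9% of imiquimod cells and in 35.5% and 25.9% of vehicle cells. Bcl2l1, which encodes the survival protein Bcl-xL, was at 794 and 295.3 CPM for imiquimod and 1313 and 868 CPM for vehicle, and Tnip1, a partner of A20, at 124.6 and 191.6 CPM for imiquimod and 471 and 302.3 CPM for vehicle. Nfkbia, which encodes the inhibitor IκBα, was at 3324 and 2065 CPM for imiquimod and 2357 and 973 CPM for vehicle.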

How the data were processed

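Single-cell, ten-cell and empty wells were grouped by treatment and plate from the labels. The deposited matrix holds whole read counts per gene and well. Per the submitters' processing notes, the authors used Trimmomatic 0.39, STAR 2.7.3a and SAMtools 1.12 with mm39. The counting tool, strand setting and annotation are not given in the sources used here, so reads of overlapping genes may be shared. Per the labels' protocols, oligo-dT primed cDNA with a template-switch oligo was amplified by PCR. No molecular identifiers are mentioned there, so PCR copies of a molecule count as several reads, and every limit on a share of 0, computed as 3 counts of the total, covers counting error only.

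The 10 genes, the pathway lists and the rule for named genes were chosen with earlier results of these data known. Counts of kept cells (at least 500 genes and 10000 counts) were summed per plate, to 67319087 and 99183184 for imiquimod and 90448592 and 99396458 for vehicle. The sums were tested with edgeR 4.0.16 (filterByExpr, TMM, quasi-likelihood, Benjamini-Hochberg adjustment over 14462 genes, threshold 0.05) in R 4.3.3. The SE printed with an edgeR log2 fold change is its absolute value over the square root of the quasi-likelihood F. It thus restates the test and is no separate estimate of spread. The labels tie no plate to an animal, so p-values measure the spread between plates, which may be technical. The test was checked on simulated counts of 14377 genes with low dispersion, where 98 of 99 genes changed 4-fold and 99 of 99 changed 16-fold were recovered and 13 unchanged genes were also called. Detection means at least 1 count, and the 4 plate shares of a gene entered an exact permutation test, two-sided. No doublet caller was run, since the wells were filled by sorting. A kept well of vehicle plate 2 held 8033 genes and one of imiquimod plate 2 held 7483. Both lie above the median of 6623.5 genes in the wells of 10 cells. Whether any kept well held more than 1 cell was not tested. Levels of single cells are CPM of the well's total. Levels per kilobase use the summed exon length of GENCODE M21 (GRCm38). From each pathway list up to 4 genes were named, those of smallest p among genes with a count in at least 20% of the kept cells of 1 treatment. A gene so named is not reported here. Promoter sequences are from RefSeq, and all 10 genes matched. Alternatives were DESeq2 1.42.0 and its size factors, limma 3.58.1 on mean log2(CPM + 1), other filters, thinning to 100000 or 410000 counts, and leaving out each plate. Detection among cells with a Foxp3 count and at 1000 CPM was added after seeing the data.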

Additional observations from a re-analysis of the deposited data

Results flagged for a closer look

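The wells of 10 cells enter no comparison between treatments, and all 10 genes had counts there. Of the 16 wells, 16 had a count of Tnfrsf4, 15 of Tnfrsf18, 16 of Tnfrsf9, 15 of Tnfrsf1b, 6 of Tnfrsf1a, 15 of Traf1, 9 of Traf2, 14 of Traf3, 3 of Traf5 and 9 of Traf6. Of the 20 empty wells, 2 had a count of Tnfrsf18 and 1 of Traf1, and the other 8 genes had none. That allows up to 15.0% only if every empty well could have shown a count. Many of them held few or no reads of any gene, so this limit is too low. The share of wells with Traf5, 18.8%, is the nearest to it, followed by that of Tnfrsf1a, 37.5%. Some of the wells with Traf5 or Tnfrsf1a held a single count. For Traf5 and Tnfrsf1a the empty wells therefore do not decide whether the counts exceed background.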

How the results depend on the processing

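No paired analysis was possible because the plates of the treatments share no animal, batch or number that the labels tie together. The count of genes past the adjusted threshold was 0 in edgeR (1669 at an unadjusted p under 0.05), 3740 in DESeq2 and 9 with no expression filter, and leaving out a plate gave 0 to 794. Those 794 came without imiquimod plate 2, and 1.02% of 20984 genes came without imiquimod plate 1. Of the 10 members 1, Tnfrsf4, was called by DESeq2 and 1, again Tnfrsf4, without imiquimod plate 2, so that leaving out a plate gave 0 to 1. The number of members with lower detection on both imiquimod plates was 7, and it was 4 at 10 CPM or more, 4 after thinning to 100000 counts and 1 at 1000 CPM or more. Leaving out a plate gave 7 to 10, but without an imiquimod plate only the remaining one had to be lower. The 10 came from imiquimod plate 1 alone, where Tnfrsf1a and Traf5 had no count. Beside these counts, 59.3% of 1559 genes were lower with all counts and 56.2% of 605 after thinning. At 1000 CPM or more 25.2% of 751 genes were lower. No such share was computed at 10 CPM or with a plate left out.

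The Traf1 log2 fold change was negative in all 14 alternatives run, from -4.002 to -0.998, with adjusted p-values of 0.274 to 0.801. The Tnfrsf4 value was positive in all 14, from 0.15 to 2.43. Limma on mean log2(CPM + 1) turned the sign for Tnfrsf18 (-0.30), Tnfrsf9 (-0.87), Tnfrsf1b (-1.02), Tnfrsf1a (-0.011), Traf2 (-0.34), Traf3 (-0.82) and Traf6 (-0.11), and by construction it weights cells equally. Thinning to 100000 counts turned Tnfrsf9 (-0.11) and Traf3 (-0.083), as did 410000 counts (-0.065 and -0.16). Traf6 was -1.65 without its highest cells. Leaving out a plate gave 0.79 to 2.14 for Tnfrsf1a, -2.60 to 1.91 for Traf2, 1.57 to 9.18 for Traf5 and -0.64 to 2.81 for Traf6. Without imiquimod plate 2 no value is given for Tnfrsf1a, Traf5 and Traf6, since imiquimod plate 1 held 0, 0 and 2 counts of them. The cause of the other reversals was not tested. Tnfrsf1a, Traf5 and Traf6 were each counted in 14 cells or fewer, which limits the precision of their values.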

Other observations

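Among the pathway genes, a pair of NF-κB subunits had shares that ran in opposite directions, chosen after their values were seen. Rela, the main activating subunit, was counted in 62.2% of imiquimod cells and 44.2% of vehicle cells, and Nfkb1, its partner, in 31.7% and 60.0%. Tank, a TRAF-binding regulator, was counted in 26.8% of imiquimod cells and 54.2% of vehicle cells. These shares pool the plates of a treatment and were not tested. Of 1559 genes seen in at least 20% of kept cells, 59.3% were lower on both imiquimod plates, with a median difference of -10.03 percentage points. The lower shares of Nfkb1 and Tank thus run in the direction of most such genes.

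The 4 title sets of the wells of 10 cells, POS, POS2, POS3 and POS4, carry no treatment. In set POS4 Traf1 was at 23.0, 477, 573 and 0 CPM, with a median of 250 CPM, while the medians of the sets POS, POS2 and POS3 were 1487, 1065 and 1238 CPM. Tnfrsf4 had its highest median in set POS3, at 2984 CPM, and its lowest in POS2, at 552 CPM. The POS4 wells were below every POS and POS2 well for Traf1 and overlapped with those of POS3. The POS4 well at 0 CPM had 710021 counts, the fewest of the wells of 10 cells.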
